A study of Mus musculus with 2 samples.

Results

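A set of 10 genes of early blood progenitors were followed in 2 Affymetrix mouse arrays of erythroid progenitors that lack the erythropoietin receptor, one made at 0 h and one at 3 h. The genes were chosen by name: *Gata2*, *Hlf*, *Meis1*, *Hoxa9*, *Cd34*, *Runx1*, *Erg*, *Lyl1*, *Mecom* and *Spi1*. All 10 were measured, each by 1 probe set, among 17874 genes in all. The cells were negatively sorted colony-forming unit erythroid (CFU-E) cells from fetal livers of EpoR-/- BALB/c embryos at gestational day 13.5. Sorted cells spent 1 h without growth factors and were lysed directly (0 h, 1 array) or after another 3 h in Panserin medium (3 h, 1 array). By these descriptions both samples share the deletion and the starvation and differ in the time in culture. *Epor*, the gene described as deleted, gave 7.08 at 0 h and 6.89 at 3 h. Both values are above the floor given below, so the array does not show the loss of the transcript. The probe set's position relative to the deleted part is unknown and wild-type cells were not analysed here, so the genotype is given as the protocol's description. The protocol says that no growth factors were added, whereas the 3 h treatment label names them; the genotype label names Epo, not its receptor; and a strain label is present only for 0 h. Livers were pooled in batches of 40 to 50 for sorting, so a value describes many embryos, and no label says whether the 2 samples shared a pool. There were no replicates, so every difference below is the gap between 2 arrays, has no error of its own and was not tested.

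These genes belong to the programme that blood stem and multipotent progenitor cells use before lineage choice. GATA2, LYL1, RUNX1 and ERG are transcription factors that bind many of the same regulatory regions in such cells, HOXA9 and MEIS1 act together at DNA, HLF and MECOM (EVI1) are factors of the most immature cells, and PU.1, the product of *Spi1*, directs myeloid and lymphoid fates. CD34 is a surface sialomucin of progenitors and of endothelium. As erythroid cells mature, GATA1 replaces GATA2 at shared sites and most of this programme is lost.

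Values are log2 expression values, and a difference is the 3 h value minus the 0 h value. The floor for counting a gene was 5.70, the median over every gene on both arrays, and the brighter array had to reach it. That held for 9284 genes and for 9 of the 10 progenitor genes. *Erg* was the exception, with 4.87 at 0 h and 5.08 at 3 h. For scale, the differences of the 9284 genes had a robust SD of 0.32, which holds both array noise and biology. Of 12 erythroid factors listed, *Epor* among them, 11 reached the floor at 0 h and 12 at 3 h. A floor that 9284 of 17874 genes reached does not identify a cell type. Some of the 12, such as *Tal1*, also stand in the list of stem and progenitor factors used below. *Klf1*, an erythroid master regulator, stood at 12.03 and 12.31. Genes of other cells gave high values too: the hepatocyte gene *Afp* stood at 14.60 and 14.53, and the granulocyte gene *Mpo* at 11.70 and 12.15. The values describe the whole sorted sample, and fewer cells of a type cannot be told apart from less RNA per cell.

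Most of the progenitor genes stayed within 1.5-fold between the arrays, but a smaller share of them than of all genes. Of the 9 that counted, *Runx1* and *Gata2* (2 genes) exceeded 1.5-fold upward at 3 h and *Hlf* (1 gene) exceeded it downward. Among all genes at or above the floor the shares were 6.94% higher and 4.80% lower. None of the 9 reached 2-fold, a size that 2.00% of all genes reached upward and 0.872% downward. The other 6 of the 9 (66.7%) stayed within 1.5-fold, against 88.3% of all genes. By sign alone, 7 of the 9 were higher at 3 h and 2 lower, where 51.5% of all genes were higher and 48.5% lower. Signs of small differences are weak evidence on single probe sets: of 18 genes at or above the floor with several probe sets, 8 had probe sets that disagreed in sign, with a median gap of 0.25 between them. Agreement between probe sets could not be checked for the progenitor genes, each having 1 in the table used here. Their median difference was 0.30 (0.25 over all 10), against 0.0094 for all genes at or above the floor. The differences of *Hoxa9*, *Mecom*, *Cd34* and *Meis1* were smaller than the robust SD. That SD was set from the quartiles of all genes at or above the floor, so most of those genes lie within it too. Their exact share was not counted.

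**Figure D1:**
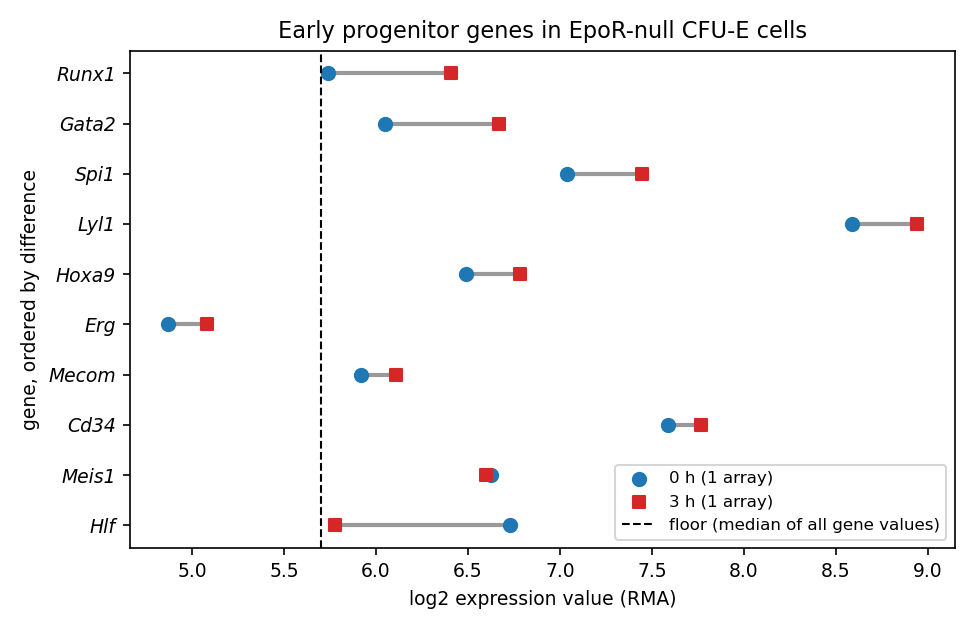
Log2 expression value (horizontal axis) of each early progenitor gene at 0 h (circles) and 3 h (squares), 1 array each, with the floor of 5.70 as a dashed line. *Hlf* moves left from 6.73 to 5.78, *Runx1* and *Gata2* move right, and *Erg* lies below the floor at both times.

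*Hlf*, which encodes a PAR bZIP factor of stem cells that also acts in the liver and the circadian system, differed most. It had 6.73 at 0 h and 5.78 at 3 h, a difference of -0.95 or 1.94-fold lower. The 3 h value was only 0.08 above the floor, which is a median of gene values and not a measure of background. Of the 9284 genes, 96 (1.03%) were as low or lower by difference, *Hlf* included. Among 1957 other genes with a mean within 0.5 of that of *Hlf*, 26 (1.33%) were lower by as much. The gene was thus in the outer tail of differences for its level, on a single probe set.

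*Runx1* and *Gata2* were the counterparts on the upper side. *Runx1*, which encodes the DNA-binding subunit of core binding factor and is needed for the emergence of blood stem cells, went from 5.74 to 6.41, a difference of 0.67 or 1.59-fold. *Gata2*, which maintains progenitors and precedes *Gata1* in erythroid development, went from 6.05 to 6.67, a difference of 0.62 or 1.54-fold. Differences of this size were not rare: 488 genes (5.26%) were at least as high as *Runx1* and 571 (6.15%) at least as high as *Gata2*. Among genes of similar mean, 6.84% differed upward by as much as *Runx1* and 8.70% by as much as *Gata2*. After quantile normalization of the arrays against each other *Gata2* differed by 0.56, under 1.5-fold, and *Hlf* by -1.003, past 2-fold. At 0 h *Runx1* lay 0.04 above the floor and *Gata2* 0.35 above it, and arrays compress differences at such levels.

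The promoters of these 3 genes are shown because they are the members that passed 1.5-fold. Those of *Meis1* and *Mecom* are shown because their windows at the first start site hold matches to blood factor motifs. Each is the 250 bases before the first start site in the promoter set used, from RefSeq on GRCm38.p6. Sequences run in the direction of transcription, 5′ to 3′ on the gene's strand. For *Meis1*, on the minus strand, the annotated gene reaches to chr11:19019651. Its window thus lies inside the annotated gene and not before its outermost start. Both strands were searched, and capitals mark every match. The motifs for GATA factors were AGATAA and also TGATAA. For RUNX factors the motif was TGTGGT, for ETS factors CCGGAAGT, for helix-loop-helix factors the E-box CAGCTG, and for MEIS factors TGACAG. The motifs do not contain one another. The windows are chr11:90390918-90391167 (minus strand) for *Hlf*, chr16:92826075-92826324 (minus strand) for *Runx1*, chr6:88193641-88193890 (plus strand) for *Gata2*, chr11:19018970-19019219 (minus strand) for *Meis1* and chr3:30509760-30510009 (minus strand) for *Mecom*.
Hlf: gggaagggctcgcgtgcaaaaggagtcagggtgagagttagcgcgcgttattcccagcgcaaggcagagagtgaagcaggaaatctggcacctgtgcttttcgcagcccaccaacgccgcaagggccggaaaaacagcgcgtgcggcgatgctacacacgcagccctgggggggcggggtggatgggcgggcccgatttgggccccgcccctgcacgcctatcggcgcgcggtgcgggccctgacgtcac
Runx1: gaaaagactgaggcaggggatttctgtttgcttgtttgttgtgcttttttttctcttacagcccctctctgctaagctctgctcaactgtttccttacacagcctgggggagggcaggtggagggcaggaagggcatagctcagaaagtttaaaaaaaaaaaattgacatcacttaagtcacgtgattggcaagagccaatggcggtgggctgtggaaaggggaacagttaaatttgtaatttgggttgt
Gata2: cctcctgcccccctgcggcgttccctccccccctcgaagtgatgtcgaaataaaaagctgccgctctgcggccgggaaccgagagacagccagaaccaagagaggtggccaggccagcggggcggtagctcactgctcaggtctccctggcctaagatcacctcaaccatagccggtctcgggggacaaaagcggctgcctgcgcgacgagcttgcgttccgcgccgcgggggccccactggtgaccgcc
Meis1: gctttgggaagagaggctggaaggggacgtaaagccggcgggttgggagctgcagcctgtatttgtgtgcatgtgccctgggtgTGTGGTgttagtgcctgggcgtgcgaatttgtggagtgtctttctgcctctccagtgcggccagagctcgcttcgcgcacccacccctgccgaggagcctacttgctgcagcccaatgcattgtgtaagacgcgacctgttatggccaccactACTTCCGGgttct
Mecom: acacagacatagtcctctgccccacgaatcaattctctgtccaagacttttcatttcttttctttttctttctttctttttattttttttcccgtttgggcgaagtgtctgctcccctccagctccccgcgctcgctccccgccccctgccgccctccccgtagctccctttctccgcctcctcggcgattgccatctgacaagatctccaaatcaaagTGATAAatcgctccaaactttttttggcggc

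No motif searched was found in the windows of *Hlf*, *Runx1* or *Gata2*, nor in the window of the other start site of *Runx1* or of *Gata2*. *Meis1* held a RUNX motif and an ETS motif, the latter read on the reverse strand as ACTTCCGG. *Mecom* held a TGATAA whose first base lies at -31 from the start site. Later start sites, not shown, held matches too. The window of start site 3 of *Erg* held AGATAA and TGACAG, and that of start site 2 of *Mecom* held TGACAG. The table matched 9 of the 10 genes, with 14 start sites, and 2 of these 14 windows held a GATA motif, against 16.6% of 32841 windows of the same length over all genes. The motif shares over all windows were 14.05% for TGTGGT, 2.88% for CCGGAAGT, 13.0% for CAGCTG and 15.9% for TGACAG. Among the 14 windows TGTGGT was in 1, CCGGAAGT in 1, CAGCTG in 0 and TGACAG in 2. These are matches of letters only, and distal enhancers, through which these genes are known to be controlled, were not examined.

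*Lyl1* and *Erg*, the other progenitor genes followed here whose products share regulatory regions with GATA2 and RUNX1, differed by less. *Lyl1*, a basic helix-loop-helix factor close to TAL1, was well above the floor, with 8.59 at 0 h and 8.94 at 3 h, and a difference of 0.36 (1.28-fold). *Erg*, an ETS factor that stem cells need for self-renewal, differed by 0.21 between values that were both below the floor. A dim value from a single probe set does not settle whether the gene is expressed. Among other genes with a mean within 0.5, 14.1% were higher by as much as *Lyl1* and 24.6% by as much as *Erg*.

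The genes of the HOXA9 and MEIS1 pair and *Mecom* differed by less than the scatter of single genes. *Hoxa9*, a homeobox gene of stem and myeloid progenitor cells, had 6.49 and 6.78, a difference of 0.30. *Meis1*, whose product binds DNA with HOXA9, had 6.62 and 6.60, a difference of -0.0265, the smallest of the 10 genes. *Mecom*, which encodes a zinc finger factor of long-term stem cells, had 5.92 and 6.11, a difference of 0.19, and stayed within 0.41 of the floor on both arrays. Each of these 3 differences was below the robust SD of 0.32.

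*Spi1*, the PU.1 gene, had 7.04 at 0 h and 7.44 at 3 h, a difference of 0.41 (1.32-fold), and 14.3% of genes of similar mean were higher by as much. *Cd34* had 7.59 and 7.77, a difference of 0.18 (1.14-fold). With *Lyl1*, these are the 3 genes more than 1 log2 unit above the floor on both arrays, and none of them reached 1.5-fold.

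**Figure D2:**
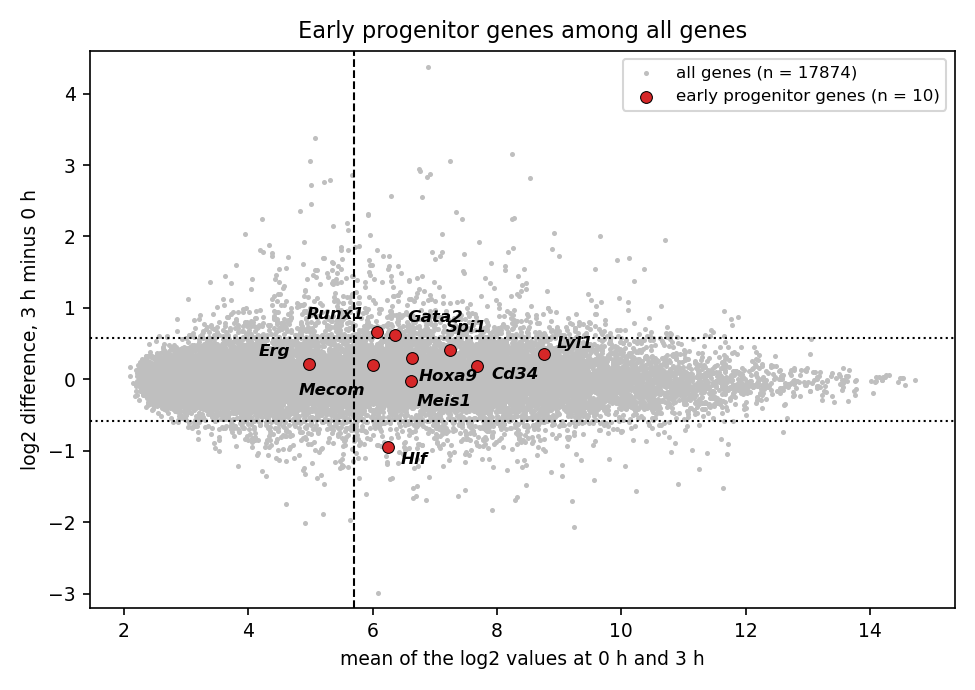
Difference between 3 h and 0 h (vertical axis, log2) against the mean of both values (horizontal axis, log2) for 17874 genes (grey) and the 10 early progenitor genes (red), with the floor of 5.70 dashed and 1.5-fold dotted. *Runx1* and *Gata2* lie just above the upper dotted line, *Hlf* at -0.95 lies below the lower one, and the others lie between the lines.

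Each progenitor gene was then set beside relatives or partners of its product, by their own differences. *Gata1*, which takes over from *Gata2* in erythroid cells, went from 9.32 to 10.15, a difference of 0.83. Both GATA genes were thus higher at 3 h, and the gap between their differences, -0.21, was smaller than the robust SD. *Tal1*, the erythroid relative of *Lyl1*, differed by 0.78, a gap of -0.42 from *Tal1* to *Lyl1*. *Cbfb*, which encodes the partner subunit of RUNX1, went from 10.38 to 11.04, a difference of 0.65 and almost that of *Runx1*. *Runx3* stayed below the floor at both times (5.28 and 5.34).

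The relatives of *Hlf* had smaller differences, also negative. *Dbp* differed by -0.45 (5.96 to 5.51), was below the floor at 3 h and counted only through 0 h. *Tef* differed by -0.21 below the floor on both arrays (5.64 and 5.43), and *Nfil3*, a repressor at the same sites, by -0.11. The differences of *Tef* and *Nfil3* were smaller than the robust SD of 0.32, so their signs carry little weight. The probe sets of *Dbp* and *Tef* carry suffixes for possible matches to more than 1 gene. *Fli1*, the closest ETS relative of *Erg*, differed by -0.03. *Prdm16*, the relative of *Mecom*, was far below the floor (3.43 and 3.41). *Cebpa*, the granulocyte factor that acts beside PU.1, differed by -0.21 while *Spi1* differed by 0.41.

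**Figure D3:**
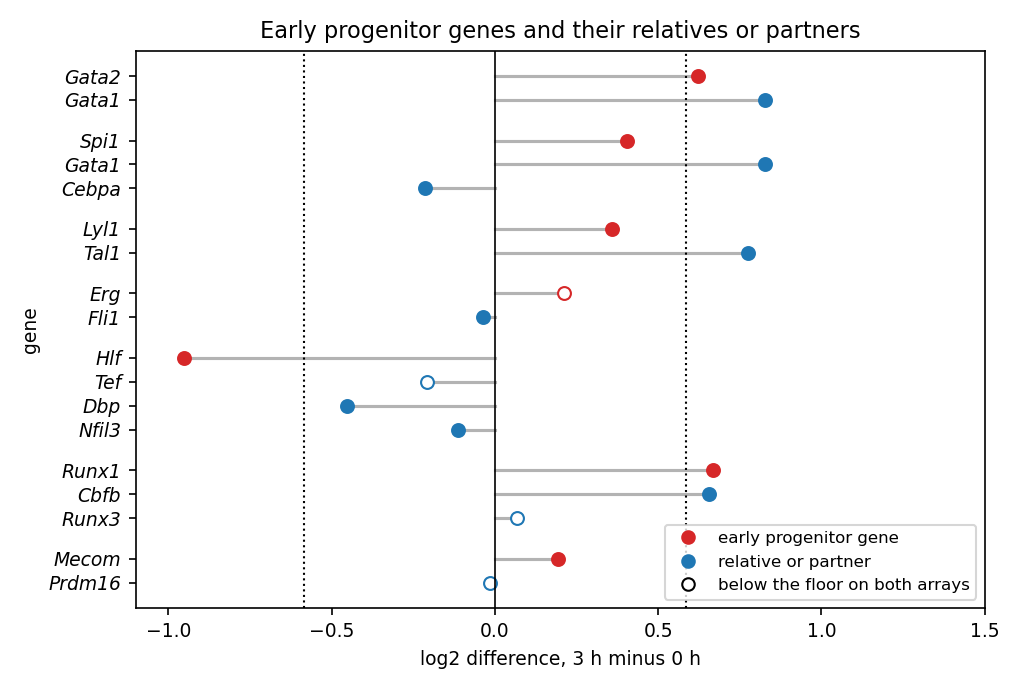
Log2 difference, 3 h minus 0 h (horizontal axis), of early progenitor genes (red) and their relatives or partners (blue), 1 array per time. Open circles are below the floor on both arrays and dotted lines mark 1.5-fold. *Gata2* with *Gata1* and *Runx1* with *Cbfb* lie past the right dotted line, and *Hlf* lies past the left one with its relatives closer to 0.

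Wider lists of the same programme were examined next. Of 17 other stem and progenitor transcription factors at or above the floor (21 measured), 4 exceeded 1.5-fold upward and 2 downward, with a median of 0.11. *Ikzf2*, which encodes Helios, was lowest, from 8.19 to 6.56 (-1.63, 3.09-fold). *Etv6*, an ETS repressor needed by adult stem cells, differed by -0.69. *Tal1* (0.78) was highest, followed by *Cbfb*, *Bmi1* (0.63), a Polycomb gene of self-renewal, and *Mycn* (0.60). *Ikzf2* thus differed further downward than *Hlf*, from a level well above the floor.

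HOX genes and their TALE cofactors, the families of *Hoxa9* and *Meis1*, had 1 of 12 at least 1.5-fold higher and none lower, with a median of 0.22 (0.03 over the 19 measured and 0.40 with the floor 1 log2 unit higher). The 1 gene is *Hoxb5*, which was below the floor at 0 h (5.42), so with both values at the floor 0 passed, as after quantile normalization. *Hoxb5* (0.59, to 6.02), *Hoxa7* (0.49) and *Hoxb2* (0.48) differed most, and *Meis2* differed by 0.45. Of 10 other progenitor surface markers bright enough to count, none reached 1.5-fold and the median was 0.0030. The stem cell factor receptor gene *Kit* had 9.01 and 9.03, and the largest difference was that of *Esam*, an adhesion molecule of stem cells and endothelium, at 0.49. *Cd34*, at 0.18, lay within the range of these 10 markers, from -0.18 to 0.49. Over all 18 measured, 3 were at least 1.5-fold higher and none lower. The 3 were *Procr* (1.31, on a probe set that may match more than 1 gene), *Tek* (0.80) and *Slamf1* (0.62), all below the floor on both arrays.

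Other ETS genes numbered 13 at or above the floor, with 3 past 1.5-fold upward and 1 downward, with a median of 0.11 that became -0.03 over all 18 measured. One of the 3, *Elf4* (5.13 to 5.77), was below the floor at 0 h. *Ets1* went from 7.37 to 8.90 (1.53, 2.88-fold) on a probe set that may match more than 1 gene, and *Elf1* differed by 0.75. Among 4 other GATA factors and cofactors at or above the floor only *Gata1* reached 1.5-fold. Over the 7 measured, *Gata4* was at least 1.5-fold lower (5.61 to 4.98, a difference of -0.63), below the floor on both arrays. Among the 12 erythroid factors 4 were at least 1.5-fold higher and none lower, with a median of 0.24; 3 were with both values at the floor. The erythroid genes *Sox6* (1.70, from 4.38, below the floor) and *Nfe2* (1.11) were highest, ahead of *Gata1* and *Tal1*. The probe sets of *Sox6* here and of the markers *S100a8*, *Hdc*, *Egfl7*, *Hnf4a* and *Acta2* given further on also carry such suffixes.

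Genes that PU.1 is known to activate were examined beside *Spi1*. Of 14 at or above the floor (21 measured), 6 exceeded 1.5-fold upward (5 after quantile normalization) and 1 downward, with a median of 0.56. By sign 12 of the 14 were higher, against the 51.5% of all genes given above. The cytokine receptor genes *Csf2rb* (6.22 to 7.94, a difference of 1.72) and *Csf2ra* (1.09) were highest, and *Egr2*, also an immediate early gene, was lowest (-1.13). *Spi1* itself, at 0.41, was below the list's median. Of 7 myeloid transcription factors at or above the floor, 1 reached 1.5-fold, namely *Cebpd* (0.69), and the median was 0.02. *Irf8* and *Klf4* stand in both lists, and *Csf1r* (0.997) stands in the list of macrophage markers too.

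Markers of other blood and liver cells are given beside these results because several progenitor genes are expressed in those cells. Granulocyte markers were higher in all 10 at or above the floor, 7 of them by at least 1.5-fold, with *S100a9* (1.94), *S100a8* (1.70) and *Camp* (1.67) highest. Of these 7, *Camp* (5.11), *Ngp* (5.25) and *Lcn2* (4.53) were below the floor at 0 h and counted only through 3 h, so 4 of 7 reached 1.5-fold with both values at the floor. The summed linear level of the 13 measured went from 6594 to 12631. Of 14 macrophage markers, 4 were at or above the floor, 3 of them at least 1.5-fold higher and 1 lower: *Lyz2* (1.83), *Csf1r*, *Fcgr3* (0.80) and *Vcam1* (-0.98). Their summed level went from 1494 to 2282, while the resident macrophage genes *C1qa*, *C1qb*, *C1qc*, *Vsig4*, *Cd5l* and *Timd4* were below the floor on both arrays. The part of myeloid cells in the values of *Spi1*, *Runx1* and the PU.1 targets was not tested.

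Of 9 mast cell and basophil markers, cells in which *Gata2* is also active, 3 were at or above the floor and none of these reached 1.5-fold. They were *Srgn* (0.34), *Cpa3* (0.45) and *Hdc* (0.33), while *Ms4a2*, *Fcer1a*, *Mcpt8*, *Tpsb2* and *Cma1* were below the floor on both arrays. *Mitf*, a mast cell factor, was below it too, but close at 3 h (4.62 to 5.69, a difference of 1.07). Over all 9, 2 were at least 1.5-fold higher, *Mitf* and *Fcer1a* (0.60). The summed level of the 9 went from 4413 to 5608. Of 10 megakaryocyte markers, cells that express *Runx1*, *Gata2* and *Erg*, 4 reached the floor. Only *Itga2b* reached it at 0 h, and *Gp1bb*, *Gp9* and *Pf4* counted only through 3 h. Of the 4, *Gp1bb* alone was at least 1.5-fold higher (4.49, below the floor, to 6.68), *Gp9* differed by 0.47, and *Itga2b* differed by -0.09. The summed level of the 10 went from 414 to 504, and *Ppbp* and *Vwf* were below the floor. The part of these cells in the values of *Gata2* and *Runx1* was not tested.

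Endothelium expresses *Cd34*, *Erg* and *Mecom*. Of 16 endothelial markers 7 reached the floor, none at least 1.5-fold higher and 1 lower, with a median of -0.07. Over all 16, 2 were at least 1.5-fold higher and 1 lower, with a median of 0.02. The 2 were *Tek* (0.80) and *Sox17* (0.78, on a probe set that may match more than 1 gene), both below the floor on both arrays. *Plvap* differed by -0.62, *Egfl7* by -0.43 and *Esam* by 0.49. *Cdh5*, a defining endothelial gene, was below the floor (3.45 and 3.53), and the summed level of the 16 went from 1403 to 1248. *Hlf* is active in liver, and of 12 hepatocyte markers, all at or above the floor, 10 were lower at 3 h and 2 higher, with a median of -0.19. Of these 12, 2 were at least 1.5-fold lower, *Apob* (-0.79) and *Hnf4a* (-0.70), and 2 at least 1.5-fold higher, *Krt8* (0.95) and *Krt18* (0.88). *Ahsg* (-0.58) and *Apoh* (-0.57) came close to it. The summed level went from 89549 to 85698, and it rests on probe sets such as those of *Afp*, *Alb* (14.15 at 0 h) and *Apoa2* (13.84) near the highest array value of 14.73, where differences can be compressed. *Hlf* differed by -0.95, and the part of hepatocytes in it was not tested.

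Stellate and mesenchymal markers had 8 of 12 at or above the floor, with a median of 0.12, *Acta2* (1.08) highest, *Lum* (-0.55) lowest, *Col1a1* at 0.37 and the abundant *Reln* at -0.34. Their summed level went from 4454 to 5126. Among 11 lymphoid markers *Ighm* alone was bright enough to count (5.70 to 6.44), and their summed level went from 254 to 307. As a background check, 3 of 15 genes typical of other organs were bright enough to count, none past 1.5-fold. Over all 15, 2 were at least 1.5-fold higher and none lower. They were *Gcg* (0.79) and *Syn1* (0.63), both below the floor on both arrays.

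**Figure D4:**
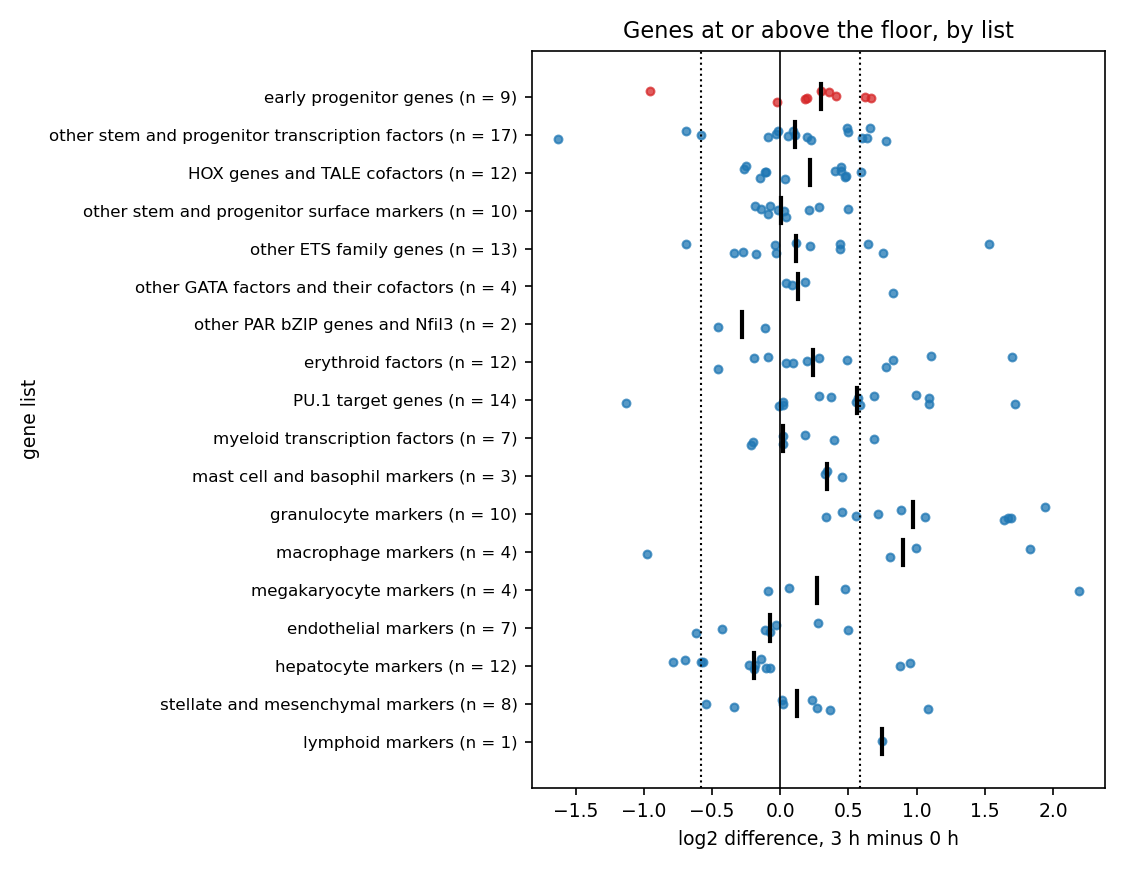
Log2 difference, 3 h minus 0 h (horizontal axis), of genes at or above the floor in each list, 1 point per gene, with the list's median as a black bar and 1.5-fold as dotted lines. The early progenitor genes (red) have a median of 0.30, and their points run from *Hlf* at -0.95 to *Runx1* at 0.67. Vertical scatter within a list has no meaning.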

How the data were processed

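Expression was measured on 2 Affymetrix arrays, 1 per time. The authors deposited log2 values made with RMA (background correction, quantile normalization, a summary per probe set) and the affy package, per the submitters' processing notes. The versions, the build and the set of arrays normalized were not given in the sources used here. This method hides a shift of all transcripts and compresses differences of dim signals. The number of arrays limits precision.

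Of 20666 probe sets, 17918 named 1 gene in the platform annotation, 79 several and 2669 none; 17767 were matched by Entrez ID to RefSeq genes (GRCm38.p6), which changed 0 symbols. Probe sets of a gene were averaged. With 1 array per time no test was made; calls were 1.5-fold and 2-fold. The members and the 18 other lists were chosen with earlier results of these data known. Named were all members, their set relatives, up to 3 genes per list with the largest absolute difference at or above the floor, and the most abundant marker of each cell type list; other genes were named after their values were seen.

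Alternatives were quantile normalization, removal of an intensity trend (loess, span 0.3), the brightest probe set, no suffixes _s_at and _x_at, no floor, both values at the floor, a floor of 6.70, the mean, and, added after the data were seen, leaving out Hlf. Python 3.11.15, numpy 2.4.6, pandas 2.3.3, statsmodels 0.14.6 and matplotlib 3.10.9 were used; the steps were tested on simulated data.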

Additional observations from a re-analysis of the deposited data

How the results depend on the processing

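Each member has 1 probe set without the suffixes, so only quantile normalization and removal of the intensity trend could change its difference; the direction of each member at or above the floor was the same under both. *Hlf* ranged from -1.003 to -0.95, *Runx1* from 0.60 to 0.67, *Gata2* from 0.56 to 0.62 and *Meis1* from -0.10 to -0.0265. Calls at a fold threshold moved where values lay next to it. Quantile normalization left 1 member at least 1.5-fold higher, since *Gata2* then missed the threshold, and put 1 member, *Hlf*, at least 2-fold lower. With the floor 1 log2 unit higher, 5 members remained and 0 were at least 1.5-fold higher, because *Runx1* and *Gata2* are dimmer than that. The median of the members ranged from 0.23 (quantile normalization) to 0.33 (without *Hlf*), and their mean was 0.19. The largest shift of the median of all genes was -0.0183, under quantile normalization. The median of HOX and TALE genes ranged from 0.03 (no floor) to 0.40 (without suffixes, or the higher floor), that of other ETS genes from -0.03 (no floor) to 0.12, and that of PU.1 targets from 0.56 to 0.64. The median of macrophage markers was 0.04 with no floor. No paired analysis was possible because each time has 1 array, and for the same reason no replicate could be left out. Signals near the floor limit *Hlf* at 3 h, *Runx1* and *Mecom* most.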
